A study of Homo sapiens with 15 samples.

Results

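The genes described here are FOS, FOSB, FOSL2, JUN, JUNB, JUND, EGR1, ATF3 and IER2, the best known transcription factor genes of the immediate early response. They were chosen by name, with earlier results of these data known: a probe set was taken where the platform annotation gives it 1 of these 9 symbols and no other. That gave 23 of the 54675 probe sets on the array. Of the 23, 17 reached the median signal of the array on at least 3 of the 15 arrays and were tested, and 6 did not, among them the only probe sets of FOS and FOSB.

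The study induced the homeobox gene MSX1 in IMR32, an established human neuroblastoma line, and measured RNA on microarrays at 4 time points with 3 arrays each. All cells carried the inducible MSX1 gene. Doxycycline, which switches it on, was in the medium of the cells at t = 8, t = 24 and t = 48 (unit of time not stated), and the t = 0 cells mark the start of the series. Another 3 arrays, the t = 48 control, came from cells grown without doxycycline. No uninduced cells were measured at t = 8 or t = 24. In differences that involve these groups, induction cannot be told apart from time in culture and handling. The promoter that drives the MSX1 gene and the number of clones are not given in the sources used here, and no group received doxycycline without carrying the MSX1 gene, so an effect of doxycycline and an effect of MSX1 cannot be told apart. The labels do not say whether the 3 arrays of a group come from separate cultures, so a p-value covers no more than the variation among these arrays, part or all of which may be technical.

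AP-1 is a dimer of a JUN protein with a FOS, JUN or ATF protein, which binds DNA through a basic leucine zipper. Its genes, together with the zinc finger factor EGR1, are transcribed within minutes when growth factors, stress or depolarisation activate MAP kinases, and most of their transcripts are short-lived. In neuronal and neuroblastoma cells EGR1 and FOS are widely used as marks of recent stimulation.

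MSX1 itself gave a signal of 95.5 to 121.5 at t = 0 on probe set 205932_s_at, 140.1 to 184.1 at t = 8, 142.2 to 182.3 at t = 24, 67.7 to 96.9 at t = 48 and 46.5 to 55.5 in the t = 48 control. On this probe set it was thus higher than at t = 0 in the early induced groups and higher than in the control at t = 48, where it was no longer above t = 0. The other MSX1 probe set, 228473_at, gave 24.3 to 34.6 at t = 0, 22.5 to 23.6 at t = 8, 16.9 to 27.4 at t = 24, 9.2 to 20.2 at t = 48 and 9.1 to 28.4 in the control. It was thus lower than at t = 0 without overlap at t = 8 and t = 48, opposite to 205932_s_at at t = 8, and overlapped with the control at t = 48. Of 12 neuroblastoma markers, 9 passed the filter, among them MYCN at 4334 to 5716, while TH, the rate-limiting enzyme of catecholamine synthesis, stayed at 0.8 to 11.9. Fibroblast genes, of which 9 of 10 passed, had a summed signal of 1289 to 1420 at t = 0, 1718 to 1898 at t = 8, 2535 to 2582 at t = 24, 2111 to 2161 at t = 48 and 1568 to 1686 in the control. Most of this sum came from COL1A1 (mean 349.6 at t = 0 and 918.6 at t = 24) and PDGFRA (742 and 1198), and LUM went from 9.73 to 160.0, while TAGLN went from 37.4 to 18.2 and ACTA2 from 44.7 to 44.3. Their part in the results below was not tested. None of the 4 Schwann cell genes passed (S100B was at 0.3 to 2.4), and of 4 epithelial genes KRT8 (14.8 to 31.9) and KRT18 (9.6 to 41.0) passed, with EPCAM and CDH1 at 0.4 to 21.1 and 0.3 to 8.7. Of 4 blood and endothelial genes PECAM1 passed (15.5 to 42.1), and PTPRC was at 0.3 to 9.4. The arrays had median signals of 18.1 to 22.6. Replicate 1 of t = 24 and replicate 3 of t = 48 had a weak bioC hybridisation control, 122.2 and 138.5 against 495.2 to 600.4 on the other 13 arrays. Replicate 3 of t = 0 stood out on the ribosomal RNA control AFFX-HUMRGE/M10098_5_at, with 703.6 against 69.1 to 178.1 on all other arrays. The ACTB 3'/5' ratio, which rises as RNA degrades, was 1.27 to 1.52 at t = 48 and 1.22 to 1.31 in the control.

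Among these genes, EGR1 was the one whose signal rose on more than 1 probe set: at t = 48 it was 2.13-fold its t = 0 level on 201694_s_at and 2.23-fold on 227404_s_at, and on 201694_s_at it also stood 1.63-fold above the uninduced control. On 227404_s_at EGR1 overlapped with the control (log2 difference 0.67, adjusted p = 0.154 by limma). The dim EGR1 probe set 201693_s_at gave -0.09 against the control (adjusted p = 0.927). At t = 48 JUN had fallen to 0.595 of its t = 0 level on its brightest probe set. A second JUN probe set had a difference of the same size that missed the threshold, and another had one of the opposite sign that also missed it. IER2 rose 1.30-fold over the same interval but overlapped with the control at t = 48 (log2 difference 0.12, adjusted p = 0.546 by limma). For FOSL2, 1 of 3 tested probe sets was 1.60-fold above the control. FOS and FOSB were at low signal on all 15 arrays, and JUNB, JUND and ATF3 had no change that passed the test in a comparison of 2 groups. All folds are on the log2(signal + 5.16) scale, which understates the change of dim probe sets, and a call means an adjusted p under 0.05 in limma (Benjamini-Hochberg over the 30676 probe sets tested). In these bulk samples fewer cells with a transcript and less transcript per cell cannot be told apart.

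**Figure D1:**
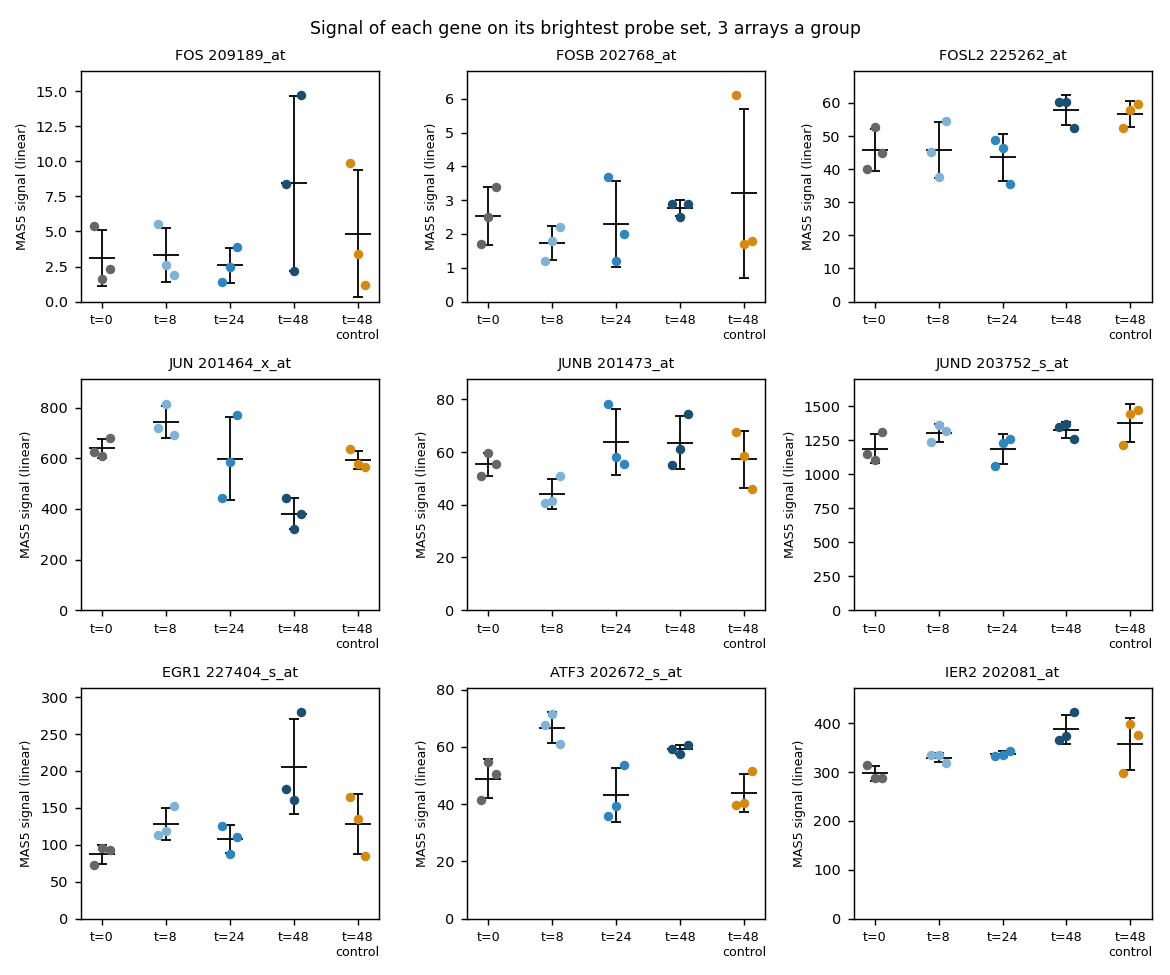
MAS5 signal (linear scale) of the brightest probe set of each gene, with 1 point per array, 3 arrays per group, and bars for the mean ± SD. EGR1 was highest at t = 48 and JUN lowest there, while FOS and FOSB stayed below 15 on every array.

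The FOS proteins are the partners that cannot form AP-1 without a JUN protein. FOS, on 209189_at, had signals of 5.4, 1.6 and 2.3 at t = 0, 5.5, 2.6 and 1.9 at t = 8, 1.4, 2.5 and 3.9 at t = 24, 8.4, 2.2 and 14.7 at t = 48, and 9.9, 3.4 and 1.2 in the control. All 15 values were below the array median, and the highest of them, at t = 48, came from the array with the weak hybridisation control. FOSB, on 202768_at, ranged from 1.2 to 6.1 with the same lack of order. Values this low say only that no level above the array median was measured, not that the transcripts are absent.

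FOSL2 encodes FRA-2, a FOS relative whose transcript lasts longer than that of FOS. Its brightest probe set, 225262_at, gave 39.9, 52.7 and 44.8 at t = 0, 45.3, 37.5 and 54.6 at t = 8, 48.9, 46.4 and 35.6 at t = 24, 60.3, 60.4 and 52.5 at t = 48, and 52.3, 57.8 and 59.7 in the control. Induced and control cells overlapped at t = 48, with a log2 difference of 0.03 (95% interval -0.29 to 0.34). A second FOSL2 probe set, 228188_at, gave 24.8, 37.4 and 27.8 at t = 0, 30.1, 34.7 and 38.8 at t = 8, 28.3, 30.6 and 30.4 at t = 24, 47.2, 27.8 and 46.1 at t = 48, and 22.8, 20.7 and 24.5 in the control. The lowest induced array at t = 48 (27.8) was above the highest control array (24.5) but within the range of t = 0. The log2 difference was 0.68 (SE 0.18, adjusted p = 0.0436 by limma), and the call was lost in 10 of 15 fits that left out 1 array and in 7 of 10 other alternatives, with adjusted p from 0.0070 to 0.156. The tested probe set 218880_at was at 9.8 to 30.3 and gave a difference of the other sign, -0.25 (SE 0.26, adjusted p = 0.63). Across the 15 arrays the 3 tested FOSL2 probe sets correlated at -0.28 to 0.07, so the gene had no single pattern. The untested 205409_at and 218881_s_at ranged from 6.0 to 26.6 and from 1.6 to 20.0.

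JUN encodes c-Jun, the strongest activator of the JUN proteins, and its promoter is a standard example of an AP-1 gene that its own product can bind. The 250 bases before its start are shown because JUN was the member with a fall that passed the test. They come from RefSeq on GRCh38.p14, chr1:58784048-58784297 on the minus strand, written 5′ to 3′, and the capitals mark a TGACATCA element 67 to 60 bases before the start.
JUN: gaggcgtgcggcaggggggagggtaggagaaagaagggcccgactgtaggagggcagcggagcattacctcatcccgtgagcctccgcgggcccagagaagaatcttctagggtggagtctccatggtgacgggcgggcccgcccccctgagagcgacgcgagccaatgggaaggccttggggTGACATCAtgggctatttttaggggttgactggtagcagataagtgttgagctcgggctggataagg
Both strands were searched, and 2.37% of the 35116 RefSeq promoters of this length hold TGACATCA. A match is a description of letters and not a measured site.

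On 201464_x_at, its brightest probe set, JUN gave 626.2, 610.1 and 681.2 at t = 0, 720.3, 815.4 and 693.1 at t = 8, 441.6, 584.3 and 770.4 at t = 24, 442.3, 319.9 and 380.7 at t = 48, and 635.9, 579.3 and 566.3 in the control. The 3 induced arrays at t = 48 lay below every array of t = 0, t = 8 and the control, and reached into the wide range at t = 24. In order of the means, t = 48 (381 ± 61.2, SD, n = 3) was followed by the control (594 ± 37.0), t = 24 (599 ± 165), t = 0 (639 ± 37.3) and t = 8 (743 ± 64.2). Neighbours from the control to t = 0 overlapped, and t = 8 lay above t = 0 without overlap (0.21, SE 0.17, adjusted p = 0.875). The fall from t = 0 to t = 48 was -0.75 on the log2 scale (SE 0.17, adjusted p = 0.0158). It missed the threshold without replicate 3 of t = 0 (-0.70, adjusted p = 0.0564) or replicate 2 of t = 48 (-0.63, adjusted p = 0.0654). Replicate 3 of t = 0 is the array with the high ribosomal RNA control. Against the control at t = 48 the difference was -0.64 (SE 0.17, 95% interval -1.02 to -0.27, adjusted p = 0.0518), which missed the threshold but passed it under 6 of the 26 alternatives, with adjusted p from 0.0148 to 0.0356. The control itself differed from t = 0 by -0.11 (SE 0.17, adjusted p = 0.916).

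On 201465_s_at the t = 48 arrays gave 79.5, 52.6 and 53.4 against 93.9, 101.5 and 123.8 at t = 0, a log2 difference of -0.75 (SE 0.28, adjusted p = 0.0969), and over the 15 arrays this probe set correlated with 201464_x_at at r = 0.91. Its t = 48 arrays overlapped with the control (104.9, 74.6 and 83.5), with a log2 difference of -0.48 (SE 0.28, adjusted p = 0.350 by limma). On 201466_s_at the values were 133.2, 126.8 and 152.4 at t = 0, 153.4, 183.8 and 184.9 at t = 8, 163.0, 160.2 and 164.8 at t = 24, 156.0, 154.4 and 164.5 at t = 48, and 124.6, 129.5 and 109.5 in the control. Here all 9 induced arrays lay above all 6 arrays of t = 0 and the control, and the difference from the control at t = 48 was 0.37 (SE 0.10, 95% interval 0.15 to 0.59, adjusted p = 0.0539), of the opposite sign to that of 201464_x_at. The correlation of these 2 probe sets was 0.04. In the moderated F-test over the 5 groups both passed, with adjusted p = 0.0194 for 201464_x_at and 0.0242 for 201466_s_at. The remaining probe set, 213281_at, ranged from 23.7 to 64.6 and passed in no comparison. By the array maker's naming, the suffix _x_at marks probe sets whose probes may bind other transcripts. The difference between t = 0 and t = 48 thus had the same size on 201464_x_at and 201465_s_at, passed the test on the first only, and had the opposite sign on 201466_s_at (0.20, SE 0.10, adjusted p = 0.219).

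**Figure D2:**
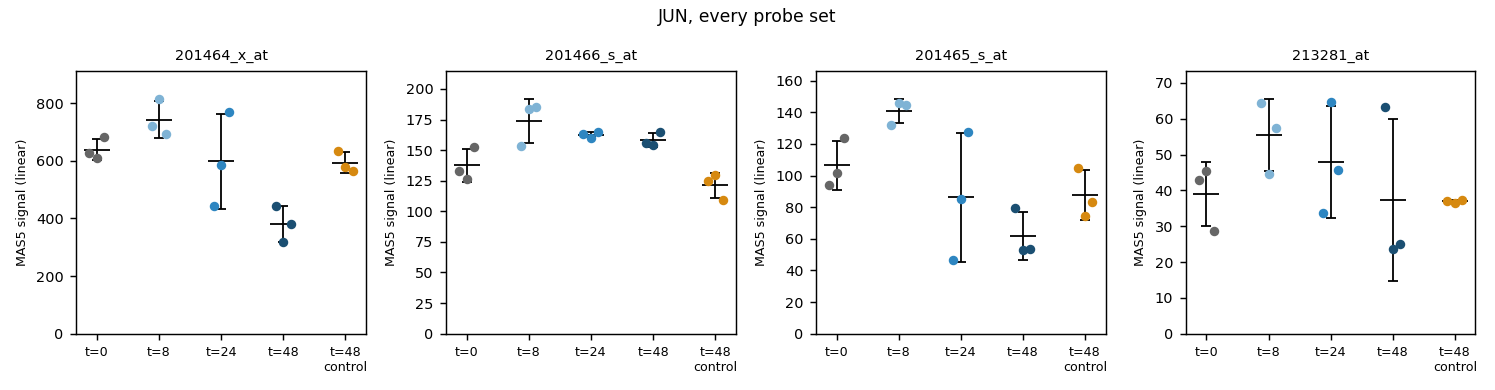
MAS5 signal (linear scale) of the 4 JUN probe sets by array, 3 arrays per group, with mean ± SD. At t = 48, 201464_x_at was lowest (319.9 to 442.3) whereas 201466_s_at (154.4 to 164.5) stayed above its t = 0 and control arrays.

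JUNB and JUND are the JUN proteins often set against c-Jun as weaker activators. JUNB, on 201473_at, gave 51.0, 59.6 and 55.3 at t = 0, 40.5, 41.4 and 50.8 at t = 8, 78.3, 58.1 and 55.4 at t = 24, 55.1, 61.1 and 74.6 at t = 48, and 67.6, 58.4 and 46.0 in the control. The t = 8 arrays lay below those of t = 0 and t = 24 without overlap, but neither difference passed: -0.30 from t = 0 to t = 8 (SE 0.16, adjusted p = 0.715) and 0.48 from t = 8 to t = 24 (SE 0.16, adjusted p = 0.146). At t = 48 JUNB differed from the control by 0.14 (95% interval -0.21 to 0.50). JUND, on 203752_s_at, was at 1062 to 1472 on all arrays, and its differences lay between -0.14 and 0.21 in the 7 comparisons, with a 95% interval of -0.28 to 0.18 against the control at t = 48. The other tested JUND probe sets, 203751_x_at (70.0 to 119.2) and 214326_x_at (56.2 to 82.4), passed in no comparison, and 229117_s_at (highest signal 18) was not tested.

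EGR1 is a zinc finger transcription factor that is induced through serum response factor (SRF), which binds CArG boxes. Its promoter is shown because EGR1 had the largest rise of the 9 genes. From RefSeq on GRCh38.p14, chr5:138465229-138465478 on the plus strand, the 250 bases before the start read as follows, with 2 CArG boxes, at 105 to 96 and 83 to 74 bases before the start, and an EGR element, 198 to 190 bases before the start, in capitals.
EGR1: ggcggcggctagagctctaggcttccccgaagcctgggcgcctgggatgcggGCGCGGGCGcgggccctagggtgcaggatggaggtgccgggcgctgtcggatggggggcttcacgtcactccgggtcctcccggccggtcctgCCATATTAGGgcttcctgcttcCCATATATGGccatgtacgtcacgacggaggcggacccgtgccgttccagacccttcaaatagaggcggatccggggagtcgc
Among the 35116 promoters searched in the same way on both strands, 1.16% hold a CArG box and 8.41% an EGR element, GCGNGGGCG. TAATTG, the core bound by MSX1, is in 6.70% of all promoters and in the windows of none of these genes, which says only that these letters are not in the 250 bases searched. TATAAA, in 10.7% of all promoters, is in those of FOS, FOSB, JUNB and ATF3, and the full CRE TGACGTCA, in 1.65%, is in that of JUND. ATF3 has more than 1 such window. TATAAA lies 230 to 225 bases before the start in the downstream ATF3 window, and TGACATCA 123 to 116 bases before the start in the other.

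EGR1 on 201694_s_at gave 59.2, 49.3 and 60.8 at t = 0, 90.2, 76.3 and 93.0 at t = 8, 52.6, 65.5 and 73.7 at t = 24, 123.2, 126.3 and 126.7 at t = 48, and 79.3, 77.7 and 68.7 in the control. The 3 arrays of t = 48 lay above every other array. In order of the means, t = 0 (56.4 ± 6.23, SD, n = 3), t = 24 (63.9 ± 10.6), the control (75.2 ± 5.71) and t = 8 (86.5 ± 8.94) each overlapped with the next, and t = 48 (125.4 ± 1.92) stood apart from t = 8. Against the control at t = 48 the log2 difference was 0.70 (SE 0.12, 95% interval 0.43 to 0.97, adjusted p = 0.00665). It kept its call in the 15 fits without 1 array and missed the threshold when the arrays were centred on their medians (0.66, adjusted p = 0.0561). Compared with t = 0 the signal at t = 48 had risen by 1.09 (SE 0.12, adjusted p = 0.000177), and compared with t = 24 by 0.93 (SE 0.12, adjusted p = 0.00146, or 0.0517 when only the compared groups entered the fit). The rise was not steady: EGR1 was 0.57 higher at t = 8 than at t = 0 (SE 0.12, adjusted p = 0.0501) and 0.41 lower at t = 24 than at t = 8 (log2 difference -0.41, SE 0.12, adjusted p = 0.105), with no overlap of the arrays in either pair, though both missed the threshold. The first of them passed it under 6 alternatives, with adjusted p from 0.0228 to 0.0458. The control at t = 48 was also above t = 0 without overlap (0.39, SE 0.12, adjusted p = 0.328).

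The brightest EGR1 probe set, 227404_s_at, gave 72.8, 96.3 and 93.0 at t = 0, 112.9, 118.2 and 152.9 at t = 8, 125.7, 87.9 and 110.0 at t = 24, 175.9, 161.1 and 279.2 at t = 48, and 164.8, 134.8 and 84.4 in the control. Its t = 48 arrays lay above those of t = 0, t = 8 and t = 24 and overlapped with the control. The rise from t = 0 to t = 48 was 1.15 (SE 0.25, adjusted p = 0.0117). Without replicate 3 of t = 48, the array with the weak hybridisation control and the highest EGR1 signal, it was 0.92 (adjusted p = 0.0514). Against the control it was 0.67 (SE 0.25, 95% interval 0.12 to 1.21, adjusted p = 0.154), close in size to the difference on 201694_s_at but with about 2 times its standard error. The pair of probe sets correlated at r = 0.78 over the 15 arrays. The dim probe set 201693_s_at was at 9.3 to 41.5 with overlapping groups throughout.

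**Figure D3:**
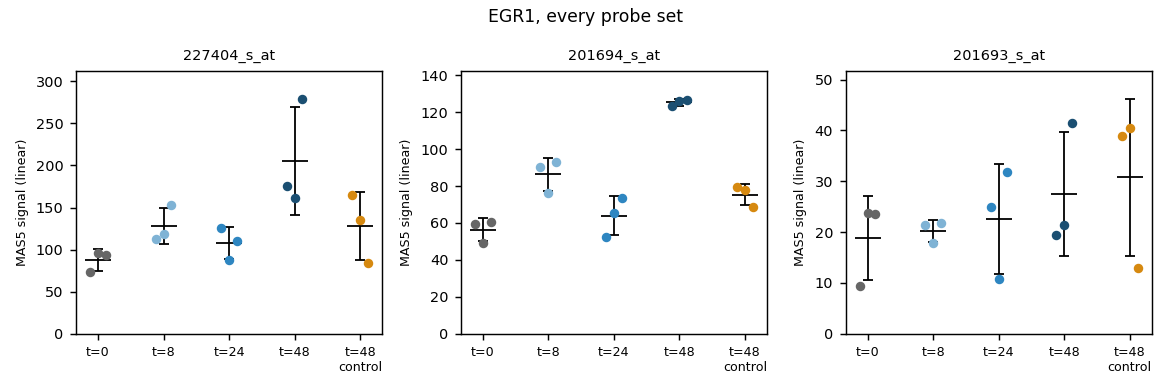
MAS5 signal (linear scale) of the 3 EGR1 probe sets by array, 3 arrays per group, with mean ± SD. On 201694_s_at the t = 48 arrays sat at 123.2 to 126.7, above all others, while on 227404_s_at 1 of them reached 279.2 and the control spread from 84.4 to 164.8.

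ATF3 is a stress-induced bZIP factor that dimerises with JUN proteins and often represses. On 202672_s_at it gave 41.4, 54.7 and 50.7 at t = 0, 67.8, 71.4 and 60.9 at t = 8, 36.0, 39.4 and 53.8 at t = 24, 59.4, 57.4 and 60.7 at t = 48, and 39.8, 40.4 and 51.6 in the control. The arrays of t = 8 and t = 48 lay above those of the other 3 groups without overlap, and these were also the highest groups of EGR1 by mean on 201694_s_at. The F-test over the 5 groups passed (adjusted p = 0.046), but no comparison of 2 groups did: the nearest was t = 24 against t = 8, -0.59 (SE 0.15, adjusted p = 0.0548, under the threshold in 5 alternatives), and the difference from the control at t = 48 was 0.40 (SE 0.15, adjusted p = 0.141). The tested 1554980_a_at ranged from 22.3 to 54.9, correlated with 202672_s_at at -0.04 and was lower at t = 48 than at t = 0 by a log2 difference of -0.42 (SE 0.23, adjusted p = 0.264). The untested 1554420_at ranged from 3.2 to 31.3.

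IER2 encodes a small nuclear protein of the immediate early response. On 202081_at it gave 314.8, 288.5 and 287.6 at t = 0, 334.4, 334.2 and 319.4 at t = 8, 332.6, 335.3 and 343.2 at t = 24, 366.2, 374.0 and 421.8 at t = 48, and 297.6, 397.5 and 375.8 in the control. The group means were higher at each later time, and the control spread over nearly the whole range. From t = 0 to t = 48 the rise was 0.38 (SE 0.11, adjusted p = 0.0395), a call that was lost in 10 of 15 fits without 1 array and in 5 of 11 other alternatives, with adjusted p from 0.0156 to 0.172. The difference from the control at t = 48 was 0.12 (95% interval -0.11 to 0.35, adjusted p = 0.546).

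Counted over the 17 tested probe sets, which share genes and are not independent, 2 were called at t = 48 against the control, where 5.13% of all tested probe sets were called. Between t = 0 and t = 48 it was 4 of 17, 3 higher and 1 lower, against 11.4% of all, and between t = 24 and t = 48 it was 1 of 17 against 2.25%. In 4 comparisons limma called none of the 17: t = 8 against t = 0 (1.11% of all called), t = 24 against t = 0 (6.08%), the control against t = 0 (0.326%) and t = 24 against t = 8 (2.38%). At an unadjusted p under 0.05 these comparisons held 3, 1, 2 and 4 of the 17, beside 8.41%, 20.8%, 8.79% and 18.4% of all tested probe sets. The F-test called 4 of 17 against 12.2% of all. Groups that did not overlap were found for 8 of 17 probe sets between t = 0 and t = 8, where 13.3% of all tested probe sets did not overlap. These were 3 probe sets of JUN, 2 of EGR1 and 1 each of JUNB, ATF3 and IER2, all higher at t = 8 except JUNB. At t = 48 it was 6 of 17 against the control (28.9% of all), 8 of 17 against t = 0 (33.2%) and 6 of 17 against t = 24 (17.0%). It was 2 of 17 between t = 0 and t = 24 (25.2%), 4 of 17 between t = 8 and t = 24 (23.5%) and 3 of 17 between t = 0 and the control (16.3%).

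**Figure D4:**
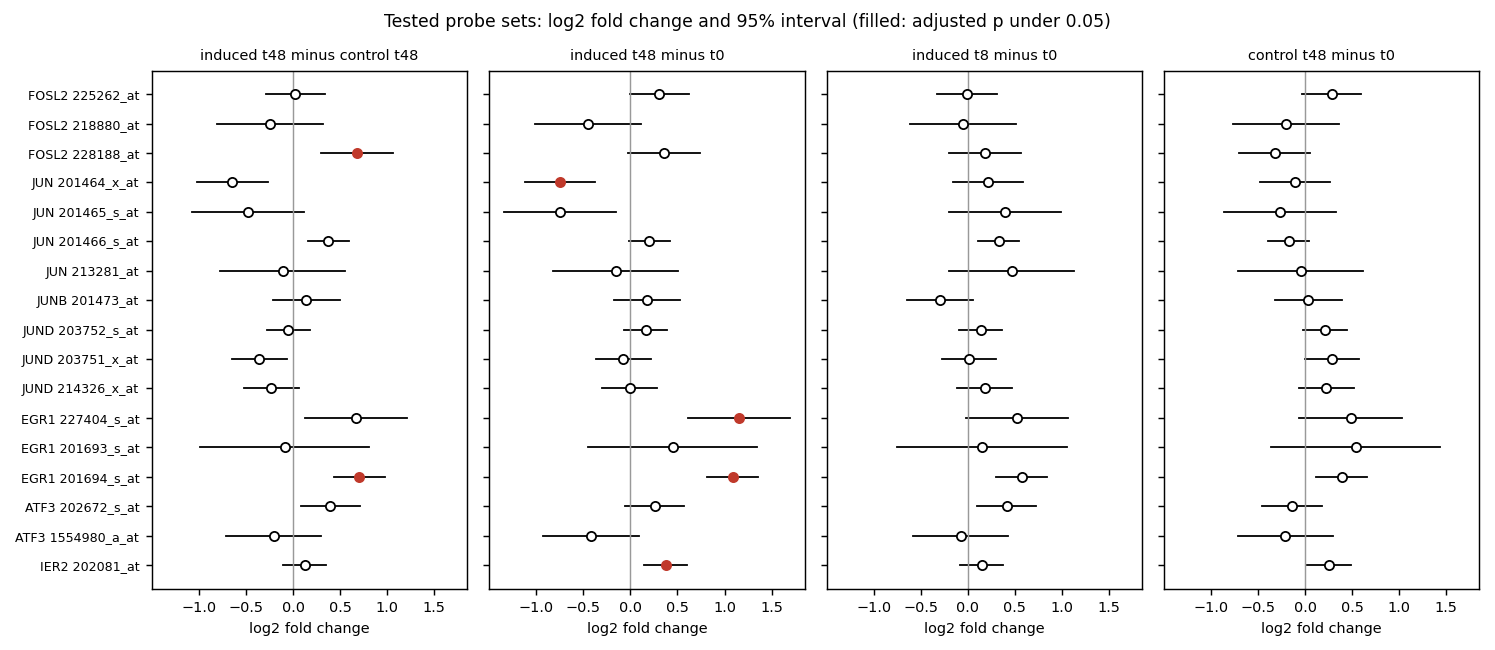
Fitted log2 differences of the 17 tested probe sets with their 95% intervals for induced against control cells at t = 48 and for induced cells at t = 48 against t = 0. At t = 48, against the control and against t = 0, EGR1 201694_s_at lay at 0.70 and 1.09, and JUN 201464_x_at at -0.64 and -0.75.

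The wider pathway was read through 5 gene lists, each gene by its brightest tested probe set. Beside them stand the shares of all 12880 genes called: 6.27% for t = 48 against the control, 1.47% for t = 8, 7.93% for t = 24, 13.8% for t = 48 and 0.458% for the control against t = 0, 3.41% for t = 24 against t = 8 and 3.05% for t = 48 against t = 24. The median log2 difference over all these genes lay between -0.02 and 0.01 in each comparison. The lists were chosen with earlier results of these data known, so their counts beside these shares are a description and not a test.

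Of 30 other immediate early genes 22 were tested. At t = 8, 3 of the 22 rose and none fell (median difference 0.22): RHOB, a stress-responsive small GTPase, by 1.18 (SE 0.10, adjusted p = 0.000117), ZFP36L1, which triggers decay of AU-rich transcripts, by 1.0 (SE 0.10, adjusted p = 0.000292), and KLF10, a TGF-β-inducible repressor, by 0.60 (SE 0.10, adjusted p = 0.0107). RHOB went from 224.8 to 265.4 at t = 0 to 547.4 to 572.7 at t = 8, 508.2 to 583.4 at t = 24 and 271.2 to 277.5 at t = 48, with 151.8 to 188.2 in the control. So RHOB and ZFP36L1 were high at t = 8 and t = 24 and fell from t = 24 to t = 48 (-0.98 and -0.83). At t = 24, 4 genes were higher than at t = 0: HES1 by 2.11, ZFP36L1 by 1.29, RHOB by 1.15 and KLF10 by 0.59. For HES1, a Notch target repressor, adjusted p was 0.00188 by limma (mean signals 58.1 and 10.7), and 203395_s_at gave 1.39 (adjusted p = 0.00803). In the same comparison IER5 was lower (-0.28, a call lost in all 15 fits without 1 array). IER5 was the 1 gene called between t = 8 and t = 24, with a difference of -0.41 (SE 0.07, adjusted p = 0.0122 by limma). That call was kept in all 15 fits without 1 array and in 8 of 11 other alternatives. At t = 48 against the control, 4 of 22 were higher and none lower (median 0.08): HES1 by 2.75 (SE 0.32, adjusted p = 0.000363, mean signals 62.8 and 5.27), RHOB by 0.69, ZFP36L1 by 0.50 and KLF10 by 0.44, the last a call kept in 10 of 15 fits without 1 array. From t = 0 to t = 48, 4 rose: HES1 by 2.23, TRIB1, a pseudokinase, by 0.90, KLF10 by 0.68 and ZFP36L1 by 0.47. A second probe set of TRIB1 gave 0.20 (adjusted p = 0.685 by limma). KLF2, a zinc finger factor, fell by 0.71. RHOB was the 1 gene called between the control and t = 0, at -0.52 (adjusted p = 0.0455), and that call was lost in all 15 fits without 1 array. For ZFP36L1, the second probe set, 211965_at, gave the same signs with smaller differences, such as 0.66 at t = 8 (adjusted p = 0.348), none of which passed. The second probe set of RHOB gave 0.93 at t = 8 (adjusted p = 0.0314) and 0.60 at t = 48 against the control (adjusted p = 0.0852).

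Feedback inhibitors, most of which shut the MAP kinase pathway off again, were all tested (14 of 14). SPRED2, which blocks RAF activation, was at 219.8 to 229.3 at t = 0, 379.3 to 415.1 at t = 8, 410.5 to 445.4 at t = 24, 417.7 to 506.1 at t = 48 and 301.4 to 350.3 in the control, and was the 1 gene of the list called at t = 8 (0.81, SE 0.09, adjusted p = 0.00104). DUSP4, a nuclear phosphatase of ERK and JNK, was at 68.6 to 87.0 at t = 0, 77.2 to 101.7 at t = 8, 102.1 to 148.9 at t = 24, 144.2 to 170.7 at t = 48 and 68.7 to 84.3 in the control. At t = 48 these 2 of 14 genes were above the control, DUSP4 by 0.99 (SE 0.15, adjusted p = 0.00259) and SPRED2 by 0.44 (SE 0.09, adjusted p = 0.0179), with a list median of 0.12. For DUSP4 the probe sets 226034_at and 204015_s_at gave 1.05 (adjusted p = 0.0036) and 0.61 (adjusted p = 0.0676), while for SPRED2 212466_at gave -0.31 (adjusted p = 0.319). At t = 24 against t = 0, 3 of 14 rose: SPRED2 by 0.89, DUSP4 by 0.65 and DUSP10 by 0.59. Their adjusted p by limma was 0.000123, 0.0271 and 0.0043. The DUSP4 call was kept in 11 of 15 fits without 1 array, those of SPRED2 and DUSP10 in all 15. Other tested probe sets gave 0.38 for SPRED2, 0.55 and 0.59 for DUSP4 and 0.59 for DUSP10, and none passed. At t = 48 against t = 0, 3 rose (SPRED2 by 0.98, DUSP4 by 0.97 and DUSP10 by 0.39) and DUSP2 fell by 1.03 at low signal (means 6.03 and 16.8). In this comparison SPRED2 on 212466_at gave 0.03 (adjusted p = 0.941) and DUSP10 on 215501_s_at 0.19 (adjusted p = 0.484). From t = 24 to t = 48 DUSP2 changed by -1.92 (SE 0.29, adjusted p = 0.00296 by limma), with a mean of 35.8 at t = 24. This DUSP2 call was kept in all 15 fits without 1 array and in 10 of 10 other alternatives. SPRED2 was also called between the control and t = 0 (0.53, SE 0.09, adjusted p = 0.0351), a call kept in 6 of 15 fits without 1 array.

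**Figure D5:**
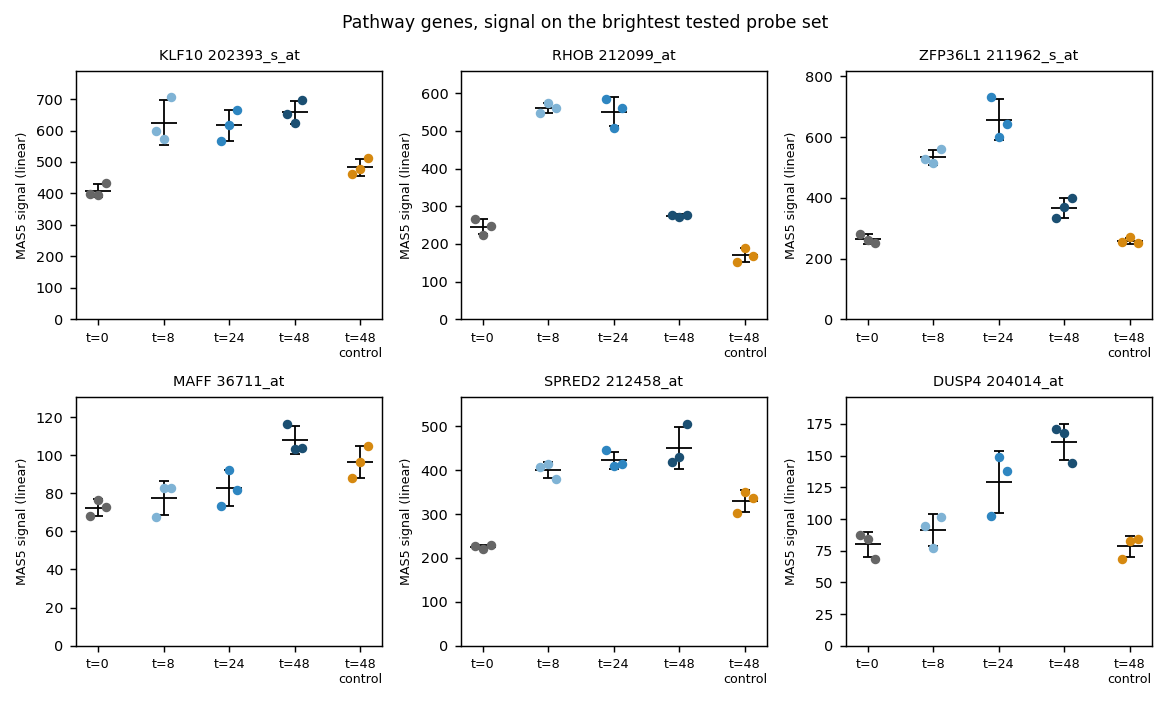
MAS5 signal (linear scale) by array of KLF10, RHOB, ZFP36L1, MAFF, SPRED2 and DUSP4, each on its brightest tested probe set, with mean ± SD. RHOB was high at t = 8 (547.4 to 572.7) and back near its t = 0 values at t = 48, whereas DUSP4 was highest at t = 48 (144.2 to 170.7).

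Upstream of these genes stand kinases and the factors SRF and CREB. All 16 with a named probe set, of 21 listed, were tested, and MAPK10, the neuronal JNK3, was the only call in the 7 comparisons: it was 0.81 higher at t = 24 than at t = 0 (SE 0.13, adjusted p = 0.00273), with 0.09 and 0.28 on its other tested probe sets (adjusted p = 0.859 and 0.574). Of 14 other AP-1 and MAF bZIP genes 6 were tested. MAFF, a small MAF protein, was 0.54 higher at t = 48 than at t = 0 (SE 0.11, adjusted p = 0.00881), with 0.23 on 205193_at (adjusted p = 0.848), none differed from the control at t = 48, and at t = 24 JDP2, a JUN-binding repressor, was higher (1.42, adjusted p = 0.0456) and BATF3 lower (-0.44, adjusted p = 0.0349). The JDP2 call was lost in 11 of 15 fits without 1 array, and a second JDP2 probe set gave -0.17.

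Of 16 textbook AP-1 target genes 9 were tested. At t = 24 VEGFA, the angiogenic growth factor, was 1.42 higher than at t = 0 (SE 0.20, adjusted p = 0.00117 by limma). Against t = 8 it was 0.96 higher (adjusted p = 0.0267), a call kept in 10 of 15 fits without 1 array. At t = 48 it was higher than in the control by 1.14 (SE 0.20, adjusted p = 0.00679) and than at t = 0 by 1.64 (SE 0.20, adjusted p = 0.000335). Its other tested probe sets gave -0.02 to 0.58 against the control, none past the threshold. Against t = 0, 211527_x_at passed at t = 24 (1.11) and t = 48 (0.89), 212171_x_at passed at t = 48 only (0.61), and 210513_s_at passed at neither. PLAUR, the urokinase receptor, was lower than in the control by a log2 difference of -0.53 (adjusted p = 0.0338), while 211924_s_at gave -0.63 (adjusted p = 0.0163) and 214866_at -0.10 (adjusted p = 0.933). CCND1, which encodes cyclin D1, and VIM, which encodes vimentin, fell from t = 0 to t = 48 by 0.58 and 0.45, with -0.48 and -0.34 on their other tested probe sets (adjusted p = 0.208 and 0.215). The list thus held 1 higher and 1 lower gene against the control (median -0.32) and 1 higher and 2 lower against t = 0 (median -0.45).

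Over the 15 arrays, the genes whose log2 pattern was most like that of JUN were SSNA1 (r = 0.94), MRPL24 (0.92) and SYPL1 (0.91). For EGR1 on 227404_s_at they were TSHZ1 (0.82), CCDC181 (0.82) and NAPB (0.80), and for IER2 DIPK1B (0.88), DPYSL3 (0.86) and KIAA0232 (0.86). JUNB was nearest to CRAMP1 (0.90), JUND to PLPBP (0.90), FOSL2 to FUT9 (0.84) and ATF3 to IBA57 (0.80). None of the 9 genes was among the 3 nearest of another. These r are the highest of 12880 genes, the arrays share their groups and scaling, and the values describe these arrays only.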

How the data were processed

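RNA of 15 samples was hybridised to 1 human expression array each. The deposited values are MAS5 intensity values on a linear scale made by the authors with GCOS, per the submitters' processing notes; versions and settings are not given in the sources used here. Each array's mean, without the lowest and highest 2%, was 99.99. Precision is set by the 3 arrays per group. Of 54675 probe sets, 62 were controls, 41091 had 1 gene symbol in the platform annotation, 1801 several and 11721 none.

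The offset of 5.16, the mean lower quartile, was added before log2. All 30676 probe sets at or above the array median on at least 3 of 15 arrays were tested with limma 3.58.1 (R 4.3.3), 5 group means, two-sided, with Benjamini-Hochberg adjustment over all of them. The script was tested on simulated data. The members and lists were chosen with earlier results of these data known. All members are named, the 3 nearest genes by Pearson r, and up to 4 called genes a list and comparison. The alternatives were the offset, scaling, filter, probe set choice, variance model, groups fitted, a replicate block and leaving out arrays. Promoters are from RefSeq on GRCh38.p14 and matched all 9 genes by symbol.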

Additional observations from a re-analysis of the deposited data

Results flagged for a closer look

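For 2 probe sets the change from t = 0 to t = 48 differed between cells with and without doxycycline. EGR1 on 201694_s_at changed by 1.09 in the induced and by 0.39 in the control cells, and the difference between them was 0.70 on the log2 scale (adjusted p = 0.00665 by limma), with all 3 induced arrays above all 3 control arrays. FOSL2 on 228188_at changed by 0.36 in the induced and by -0.32 in the control cells, and the difference was 0.68 (adjusted p = 0.0436), again without overlap at t = 48. The EGR1 call was lost in 1 of 25 alternatives and the FOSL2 call in 17 of 25. On the tested FOSL2 probe sets 225262_at and 218880_at the difference was 0.03 and -0.25, and neither passed. The changes in induced and in control cells are measured from the same 3 arrays of t = 0, so the difference is that of t = 48 and its control.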

How the results depend on the processing

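In all, 26 alternatives were run, 15 without 1 array each and 11 others. No named value changed sign where it was called. Of the member probe sets (17 tested, but 23 with no filter, 15 with a filter of 12 arrays and 7 with the brightest probe set per gene), the number called at t = 48 against the control (2 as reported) was 0 with arrays centred on the median, 1 with quantile normalization, with no filter, with the brightest probe set per gene and with only the compared groups, and 4 with a filter of 12 arrays. The 1 with the brightest probe set per gene was JUN 201464_x_at, lower (adjusted p = 0.0345), and neither of the 2 reported. At t = 8 against t = 0 (none as reported) it was 1 with an offset of 32, a filter of 12 arrays, or trend and robust variances. At t = 24 against t = 8 (none) it was 1 with an offset of 32, quantile normalization, a filter of 12 arrays and the brightest probe set per gene. At t = 48 against t = 24 (1) it was 0 with the brightest probe set per gene and with only the compared groups, and 3 with trend and robust variances. For the F-test (4) it was 2 with centred arrays and 1 with no filter. Without the 2 arrays with weak hybridisation controls these 5 counts were 1, 1, 0, 2 and 2. Without 1 array the counts ranged from 1 to 3 at t = 48 against the control, 0 to 1 at t = 8 and 2 to 5 at t = 48 against t = 0, 0 to 2 at t = 24 against t = 8, 1 to 2 at t = 48 against t = 24 and 2 to 5 for the F-test. The causes were not tested. Among the pathway genes, the calls of PLAUR at t = 48 against the control and of DUSP2 and DUSP10 at t = 48 against t = 0 were each kept in 10 of 15 fits without 1 array, that of VIM in 11, of KLF2 in 12 and of BATF3 at t = 24 in 8.

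The number of all probe sets called, 1574 at t = 48 against the control and 3506 against t = 0, ranged from 737 to 2057 and from 1350 to 4456 over the alternatives, that at t = 8 (339) from 5 to 457, at t = 24 (1864) from 436 to 2462, in the control against t = 0 (100) from 0 to 161, at t = 24 against t = 8 (731) from 48 to 1296, and at t = 48 against t = 24 (691) from 205 to 813.

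The labels number the replicates 1 to 3 in each group, but same-numbered arrays deviated together in only 2 of 30 pairs (r over 0.1, range -0.33 to 0.19), so the numbers were not taken to pair the samples. The highest r between arrays of different groups was 0.44, for replicate 1 of t = 24 and replicate 3 of t = 48. These are the 2 arrays with the weak hybridisation control, so they shared a deviation over the tested probe sets. Its cause was not tested. With the replicate block, 1 member probe set was called at t = 48 against the control and 2 in the F-test; EGR1 on 201694_s_at kept its difference of 0.70 (adjusted p = 0.015).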
